A study of Drosophila melanogaster with 12 samples.

Results

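Expression of 4 transcripts of genome maintenance was followed across sex and mating regime in whole virgin Drosophila melanogaster. They were taken by identifier from a table of 16637 transcripts: FBtr0076203 (SuUR), FBtr0078767 (HDAC3), FBtr0077747 (Rad1 together with Sws1) and FBtr0083570 (moi together with Tgs1). The flies came from 6 populations, 3 of them held to monogamy and the other 3 to polygamy through 65 generations of experimental evolution, on a cornmeal diet. All carried the genetic background labelled IV, and RNA was taken from whole flies at 4 days of age. Each population gave 1 array of males and 1 array of females, so the groups were monogamy males, polygamy males, monogamy females and polygamy females, with n = 3 populations in each. The number of flies behind an array is not given in the labels.

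The proteins SuUR, HDAC3, Rad1 and moi act on DNA and chromatin at different places. SuUR encodes a protein with an SNF2-like domain that slows replication forks in late-replicating heterochromatin, so that such regions stay underreplicated in polytene and other endocycling cells. HDAC3 is a class I histone deacetylase that works with SMRTER-type corepressors. Rad1 is a subunit of the ring-shaped clamp, with Rad9 and Hus1, that is loaded at damaged DNA and helps to switch on the ATR checkpoint kinase. The protein moi (Modigliani) belongs to terminin, the complex that caps fly chromosome ends, which are kept up by retrotransposons and not by telomerase. The ovary holds many endocycling nurse and follicle cells, and oocytes carry out meiotic recombination. In whole flies, fewer cells of a type and less RNA per cell cannot be told apart.

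FBtr0077747 and FBtr0083570 each carry more than 1 named reading frame. FBtr0076203 and FBtr0078767 are each named by 1 symbol and are tied to another gene only by a shared span. In the RefSeq gene table (assembly Release 6), the synonyms of all 4 name a main frame on that transcript. For FBtr0077747 the main frame is Rad1 and the upstream frame is Sws1. For FBtr0083570 the main frame is Tgs1, which hypermethylates the cap of small nuclear RNAs, and the upstream frame is moi. SuUR shares its annotated span exactly with CG45101 and HDAC3 shares its span with CG45100, and the table's synonyms call each of these an upstream frame. The transcripts map to chromosome arms 3L (SuUR), 3R (HDAC3 and moi with Tgs1) and 2L (Rad1 with Sws1). A value below belongs to the transcript and cannot be split between its frames, and the pairs are written Rad1/Sws1 and moi/Tgs1.

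Values are log2 expression values as deposited, so a difference of 1 is a 2-fold difference. Levels of different transcripts are not compared, apart from the rank of SuUR on its arrays. Of the 16637 transcripts, 44 could be given a gene symbol, 36 of them through a synonym that names a reading frame, so the named set is mostly one of transcripts with an upstream frame. Of 82 symbols in lists of chromatin, deacetylase, checkpoint, telomere, recombination and cap genes, 4 were named: kis, His4r, sle and Tgs1. Of 28 markers of ovary, testis and accessory gland, 0 were named, so the labelled tissue was not checked by them. On 3 arrays, transcripts of the other sex or dim transcripts stood apart. In monogamy male 1, the median excess of 39 female-limited transcripts over the remaining males was 3.36. In polygamy female 2, that of 348 male-limited transcripts over the remaining females was 1.15, and in polygamy female 3 it was 3.02 for 349 such transcripts. Polygamy female 3 had a mean correlation of 0.733 with the other females, against 0.894 or higher for the rest, and transcripts low in both sexes were raised in it too, by 2.32.

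The first question was whether the members differ between males and females. All 4 were lower in males than in females in every one of the 6 populations, and 3 of the 4 passed the call rule of limma (adjusted p under 0.05 over all transcripts and an absolute difference of at least 1). Over all transcripts 42.4% passed that rule and 26.1% passed it with the lower level in males, so a call of this kind was common on these arrays. Males were lower in all 6 populations for 30.6% of transcripts.

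Rad1/Sws1, the transcript of the checkpoint clamp, showed the widest gap. It stood at 10.10, 8.82 and 7.77 in monogamy males and at 7.77, 9.34 and 8.05 in polygamy males. In monogamy females it stood at 12.03, 11.79 and 11.87, and in polygamy females at 10.89, 11.58 and 11.40. No male array reached the lowest female array, which 19.0% of all transcripts also showed in this direction. The mean was 8.64 ± 0.95 in males, against 11.59 ± 0.41 in females (SD, n = 6 each), a difference of -2.95 (SE 0.39, limma adjusted p = 9.85e-05). On the linear scale males had 12.9% of the female level (95% interval 7.06% to 23.7%), and 2.90% of all transcripts had a difference this low or lower.

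SuUR, the inhibitor of fork progression, followed. Its values were 7.46, 8.13 and 9.47 in monogamy males and 9.23, 7.42 and 9.47 in polygamy males, against 9.37, 10.99 and 11.02 in monogamy females and 11.54, 11.07 and 10.97 in polygamy females. The sexes overlapped through 1 array, monogamy female 1, which lay below monogamy male 3 and polygamy male 3. SuUR averaged 8.53 ± 0.98 in males, against 10.83 ± 0.74 in females (SD, n = 6 each), a difference of -2.30 (SE 0.47, limma adjusted p = 0.00192). Males thus had 20.3% of the female level (95% interval 9.84% to 42.0%). Among the transcripts of an array, SuUR ranked between the 24.0th and the 41.4th percentile in males and between the 42.6th and the 70.3rd in females.

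The transcript moi/Tgs1, of telomere capping and cap methylation, had the tightest values. It measured 10.15, 9.87 and 9.47 in monogamy males, 9.69, 10.23 and 9.62 in polygamy males, 11.40, 11.37 and 11.44 in monogamy females and 11.20, 11.37 and 10.94 in polygamy females. The sexes did not overlap, as for 19.0% of all transcripts in this direction. Its mean was 9.84 ± 0.30 in males, against 11.29 ± 0.19 in females (SD, n = 6 each), a difference of -1.45 (SE 0.18, limma adjusted p = 6.85e-05), or 36.7% of the female level (95% interval 27.6% to 48.7%).

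HDAC3, the deacetylase, differed least. It stood at 12.07, 11.60 and 11.19 in monogamy males and at 11.14, 11.80 and 11.30 in polygamy males, against 12.68, 12.46 and 12.59 in monogamy females and 11.89, 12.31 and 11.67 in polygamy females. The sexes overlapped, since monogamy male 1 lay above polygamy females 1 and 3, and polygamy male 2 lay above polygamy female 3. HDAC3 averaged 11.52 ± 0.37 in males, against 12.27 ± 0.40 in females (SD, n = 6 each). The difference of -0.75 (SE 0.21, limma adjusted p = 0.0111) passed the test but not the required size, and 55.9% of all transcripts passed on the adjusted p alone. Of all transcripts, 36.6% had a difference this low or lower, and 57.7% had one as large in size.

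**Figure D1:**
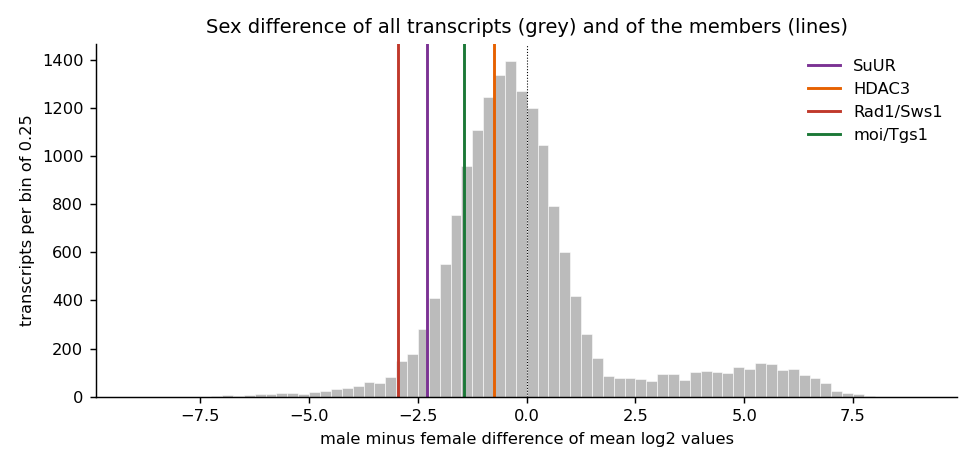
Histogram of the male minus female difference of mean log2 values (horizontal axis) over all 16637 transcripts (grey, number per bin), with a coloured line for each member. The lines lie at -2.95 (Rad1/Sws1), -2.30 (SuUR), -1.45 (moi/Tgs1) and -0.75 (HDAC3), on the side of lower levels in males, where most transcripts also lie.

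**Figure D2:**
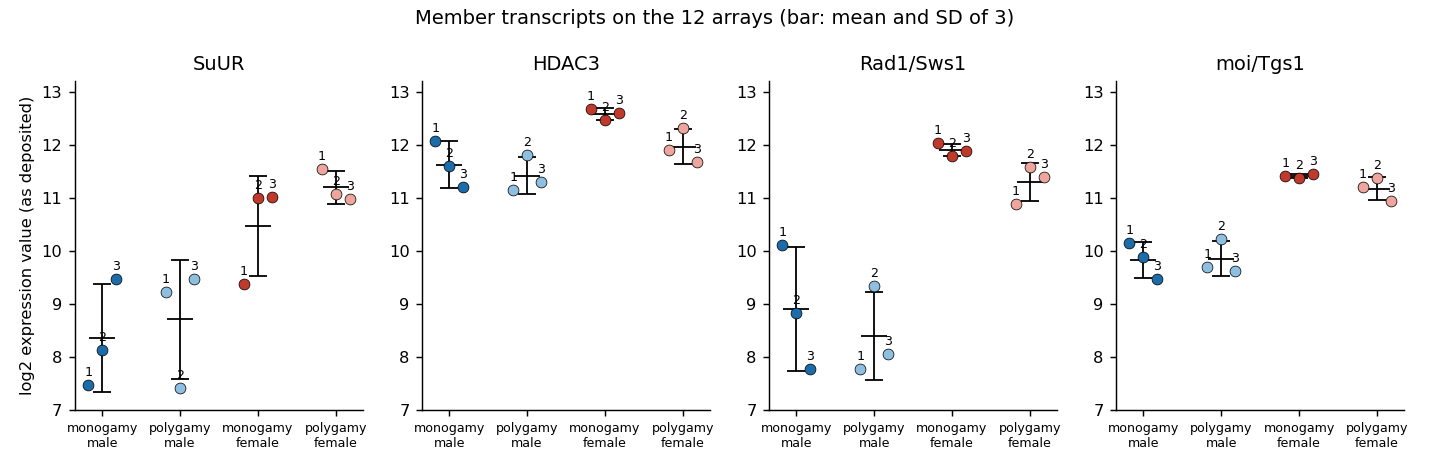
Log2 values of each member on every array (points, numbered by population within its regime), with the mean and SD of the 3 arrays of a group. Males of both regimes stand left and have lower means than females, without overlap of the sexes for Rad1/Sws1 and moi/Tgs1 and with overlap for SuUR and HDAC3.

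Each population supplied its own pair of sexes, so the difference was also taken within populations. For Rad1/Sws1 it was -1.93, -2.98 and -4.10 in monogamy populations 1 to 3 and -3.11, -2.25 and -3.35 in polygamy populations 1 to 3. For SuUR it was -1.91, -2.86 and -1.55 under monogamy and -2.32, -3.65 and -1.50 under polygamy. The 2 transcripts spread over populations by similar amounts (SD 0.78 and 0.84, n = 6) but in different order: monogamy population 3 had the largest gap of Rad1/Sws1 and nearly the smallest of SuUR. For moi/Tgs1 the differences ran from -1.97 to -1.15, and for HDAC3 from -1.40 to -0.37. With all 6 populations on 1 side, the two-sided exact sign-flip permutation test gave p = 0.0312 for each member, the smallest value it can give with 6 populations. Any transcript with all 6 differences on 1 side gets this value, so it adds nothing to the shared direction. Over all transcripts, males were lower in all 6 populations for 30.6% and higher in all 6 for 21.6%.

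**Figure D3:**
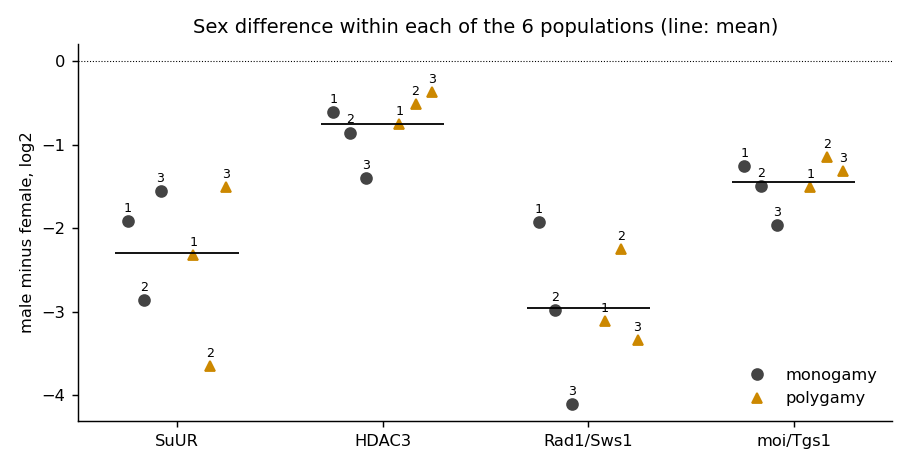
Male minus female log2 difference (vertical axis) of each member within each of the 6 populations, with monogamy populations as circles, polygamy populations as triangles and the mean as a line. All 24 points lie below 0, from -4.10 to -0.37.

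Taken within a regime, the sex difference was called for the same 3 members in both. Among monogamy populations it was -3.0 for Rad1/Sws1 (SE 0.56, adjusted p = 0.00166), -2.11 for SuUR (SE 0.67, adjusted p = 0.0291) and -1.58 for moi/Tgs1 (SE 0.26, adjusted p = 0.000793), where 20.8% of all transcripts were called lower in males. Among polygamy populations it was -2.90 for Rad1/Sws1 (SE 0.56, adjusted p = 0.00196), -2.49 for SuUR (SE 0.67, adjusted p = 0.0126) and -1.32 for moi/Tgs1 (SE 0.26, adjusted p = 0.00232), against 21.2% of all transcripts. HDAC3 differed by -0.95 under monogamy (adjusted p = 0.0267, short of the required size) and by -0.55 under polygamy (adjusted p = 0.156). The call of SuUR under monogamy was lost without monogamy male 1 or 2 or without monogamy female 2 or 3, at differences of -2.0 to -1.66 (limma, adjusted p = 0.0868 to 0.102).

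The second question was whether the members differed between the regimes after 65 generations of each. In males no regime difference was called, for the members or for any of the 16637 transcripts (0, limma), and 1.32% of transcripts were at an unadjusted p under 0.05. Monogamy and polygamy males overlapped for all 4 members, and the regimes were apart for 7.75% of transcripts. The difference, monogamy minus polygamy, was 0.51 for Rad1/Sws1 (95% interval -0.73 to 1.74), with 8.90 ± 1.17 in monogamy males and 8.39 ± 0.83 in polygamy males (SD, n = 3 each). For SuUR it was -0.35 (-1.83 to 1.13), with 8.35 ± 1.02 in monogamy males and 8.70 ± 1.12 in polygamy males. It was 0.21 for HDAC3 (-0.45 to 0.87) and -0.02 for moi/Tgs1 (-0.60 to 0.56). A 2-fold difference in either direction thus lay inside the interval of SuUR, that of Rad1/Sws1 held a 2-fold higher but not a 2-fold lower level in monogamy males, and those of HDAC3 and moi/Tgs1 held neither. Without monogamy male 1, where female-limited transcripts were high, the difference was -0.09 for Rad1/Sws1, 0.10 for SuUR and -0.01 for HDAC3, so these 3 signs rested on that array. The sign of SuUR also turned without polygamy male 3 (0.03), and that of moi/Tgs1 without monogamy male 3 (0.16) or polygamy male 2 (0.17).

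In females, HDAC3 and Rad1/Sws1 were higher in every monogamy array than in every polygamy array, but neither passed. This separation was seen for 23.2% of all transcripts, and in either direction for 38.2%, so 2 of 4 members is no result about them. HDAC3 averaged 12.57 ± 0.11 in monogamy females and 11.96 ± 0.33 in polygamy females (SD, n = 3 each), a difference of 0.62 (95% interval -0.04 to 1.27, limma adjusted p = 0.191). Rad1/Sws1 averaged 11.90 ± 0.12 in monogamy females and 11.29 ± 0.36 in polygamy females (SD, n = 3 each), a difference of 0.61 (-0.62 to 1.85, adjusted p = 0.458). The polygamy females were the more scattered group for both, and they include polygamy females 2 and 3, where male-limited transcripts were high. Without both, 1 polygamy female was left, and the difference was 0.68 for HDAC3 and 1.01 for Rad1/Sws1. For moi/Tgs1 the regimes overlapped by 1 pair of arrays at 11.37, with 11.40 ± 0.03 in monogamy females, against 11.17 ± 0.22 in polygamy females (SD, n = 3), a difference of 0.24 (-0.34 to 0.81, adjusted p = 0.539). SuUR lay the other way, with 10.46 ± 0.94 in monogamy females and 11.19 ± 0.31 in polygamy females (SD, n = 3 each) and a difference of -0.73 (-2.21 to 0.75, adjusted p = 0.458), which was -0.19 without monogamy female 1. Over all transcripts 0.0601% were called, and 29.0% were at an unadjusted p under 0.05.

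Limma's array weights changed these calls. They gave monogamy male 2 a weight of 12.2 and polygamy female 3 a weight of 0.046, so that single arrays dominated groups of 3. In males, SuUR (-1.12, adjusted p = 0.0105), Rad1/Sws1 (0.84, adjusted p = 0.00959) and HDAC3 (0.36, adjusted p = 0.0285) then passed, and in females HDAC3 passed (0.58, adjusted p = 0.0248). Under the same weights 6691 of the 16637 transcripts passed in males and 6614 in females. A pass was thus common under these weights and is no result about the members.

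When the male and female values of a population were first averaged, the regime difference was 0.56 for Rad1/Sws1, 0.41 for HDAC3, 0.11 for moi/Tgs1 and -0.54 for SuUR, and none passed (limma, adjusted p = 0.359 to 0.765). These values moved with single populations. SuUR was -0.05 without monogamy population 1, -0.32 without polygamy population 1, -0.89 without polygamy population 2 and -0.96 without monogamy population 3. Rad1/Sws1 was 0.23 without monogamy population 1, 0.31 without polygamy population 1, 0.85 without monogamy population 3 and 0.87 without polygamy population 2. HDAC3 ran from 0.28 to 0.60, and moi/Tgs1 from -0.01 without polygamy population 3 to 0.25 without polygamy population 2, with 0.03 without monogamy population 1 and 0.19 without monogamy population 3. The count over all transcripts was 0, with 15.1% at an unadjusted p under 0.05. The regime difference of males less that of females was 0.38 for SuUR (95% interval -1.71 to 2.47), -0.41 for HDAC3 (-1.33 to 0.52), -0.10 for Rad1/Sws1 (-1.85 to 1.65) and -0.26 for moi/Tgs1 (-1.07 to 0.56). None passed (limma, adjusted p = 0.862 to 0.976), and no transcript did (0, with 3.56% at an unadjusted p under 0.05).

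**Figure D4:**
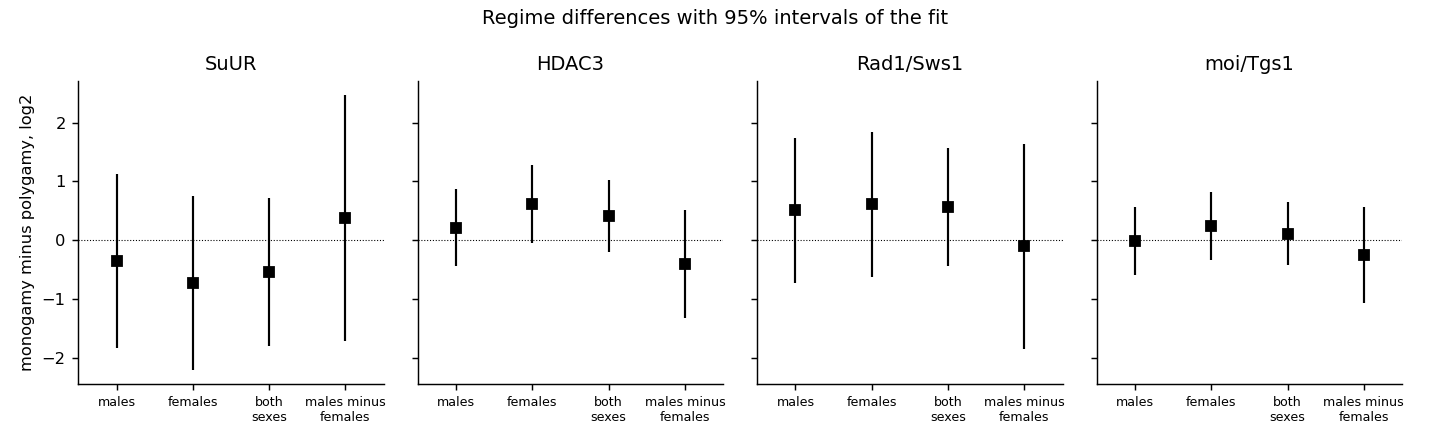
Monogamy minus polygamy log2 difference of each member in males, in females and averaged over the sexes, and the male difference less the female one (squares, with 95% intervals of the limma fit). All intervals include 0, and those of SuUR and Rad1/Sws1 are the widest.

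The members did not vary alike within a group. The residual SD of the fit was 0.91 for SuUR and 0.74 for Rad1/Sws1, higher than in 80.0% and 69.0% of all transcripts, whose median was 0.55. It was 0.33 for HDAC3 and 0.26 for moi/Tgs1, higher than in 20.7% and 12.7%. In males, the range of 2.33 for Rad1/Sws1 was wider than that of 90.0% of transcripts, and the range of 2.05 for SuUR was wider than that of 86.3%. In females, the range of 1.14 for Rad1/Sws1 was wider than that of 26.0% only.

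Among the 6 males the members moved together, and SuUR moved against the other 3. The males with low SuUR, monogamy males 1 and 2 and polygamy male 2, were the 3 with the highest Rad1/Sws1, HDAC3 and moi/Tgs1. SuUR correlated with Rad1/Sws1 at r = -0.943 (exact permutation p = 0.0125, rho = -0.886, exact p = 0.0333), with HDAC3 at r = -0.944 (exact permutation p = 0.0153, rho = -0.771, exact p = 0.103) and with moi/Tgs1 at r = -0.970 (exact permutation p = 0.00139, rho = -1, exact p = 0.00278). HDAC3 and Rad1/Sws1 correlated at r = 0.998 (exact permutation p = 0.00278, rho = 0.943, exact p = 0.0167), HDAC3 and moi/Tgs1 at 0.906, and Rad1/Sws1 and moi/Tgs1 at 0.912. Over 12 such relations, 6 in each sex, the adjusted p of the 6 male values of r was 0.0333 or lower, and that of rho ran from 0.0333 to 0.137. Without the 2 males farthest from the median of the first transcript, monogamy male 1 and polygamy male 2, the 6 values of r lay between 0.76 and 0.993 in size with unchanged signs. Leaving out 1 male at a time, all 36 values of r kept their sign and were 0.898 or larger in size. With 5 arrays few orderings are left for the exact permutation test, and 2 of these 36 had an adjusted p under 0.05. Without monogamy male 1, the correlations of SuUR with HDAC3, Rad1/Sws1 and moi/Tgs1 were -0.957, -0.973 and -0.960.

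This order of the males was shared by much of the array. The first principal component of the 6 males held 76.8% of their variance and correlated with HDAC3 at 0.994, with Rad1/Sws1 at 0.995, with moi/Tgs1 at 0.894 and with SuUR at -0.945. Of the 16636 other transcripts, 20% correlated with HDAC3 at 0.9 or more over the males and 15.6% at -0.9 or less. For SuUR these shares were 11.4% and 18.8%. Monogamy male 1 lay farthest out on the component, and the part of its raised female-limited transcripts in the order was not tested. The component did not separate the regimes, since monogamy male 3 lay with polygamy males 1 and 3.

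In females the pattern over all 6 arrays was looser. HDAC3 correlated with moi/Tgs1 at r = 0.938 (exact permutation p = 0.00556, rho = 0.886, exact p = 0.0333) and with Rad1/Sws1 at r = 0.835 (exact permutation p = 0.0292, rho = 0.943, exact p = 0.0167), and these 2 passed over the 12 relations by r (adjusted p = 0.0222 and 0.0437) but not by rho (0.0667 each). Without polygamy females 1 and 3 they were 0.694 and 0.986. The permutations ran over the arrays of both regimes. HDAC3 and Rad1/Sws1 were both higher in every monogamy female than in every polygamy female. These values of r can thus hold the regime difference as well as variation within a regime, and the 2 were not separated. Rad1/Sws1 and moi/Tgs1 correlated at r = 0.618 (exact permutation p = 0.2). Leaving out 1 female at a time, all 36 values of r kept their sign, and 6 had an adjusted p under 0.05 (exact permutation test). Without polygamy female 3, HDAC3 with Rad1/Sws1 was 0.994 and Rad1/Sws1 with moi/Tgs1 was 0.953, so the lower values of these pairs rested in part on that array. Here too the order was shared: 14% of the other transcripts correlated with HDAC3 at 0.9 or more over the females, and 18.8% did so with moi/Tgs1. The first principal component of the females held 71.5% of their variance and correlated with moi/Tgs1 at -0.963 and with HDAC3 at -0.860. Polygamy female 3 stood far out on it, with a score of 0.889, while the other 5 females lay at or below -0.0013. Unlike in males, the regimes did not overlap on the component. Monogamy females lay at -0.298, -0.229 and -0.220, below polygamy females 2 (-0.140), 1 (-0.0013) and 3. The part of regime in this order was not tested. SuUR correlated at -0.564, -0.707 and -0.310 with HDAC3, Rad1/Sws1 and moi/Tgs1, and none of these passed. Without both monogamy female 1 and polygamy female 1 their signs turned (0.535, 0.237 and 0.673), with few arrays left. Leaving out 1 female at a time, the signs held. The values were then -0.725 to -0.347 for HDAC3, -0.854 to -0.652 for Rad1/Sws1 and -0.518 to -0.085 for moi/Tgs1. The female signs of SuUR thus turned only when both arrays were left out. The difference of the correlations between the sexes was not tested.

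**Figure D5:**
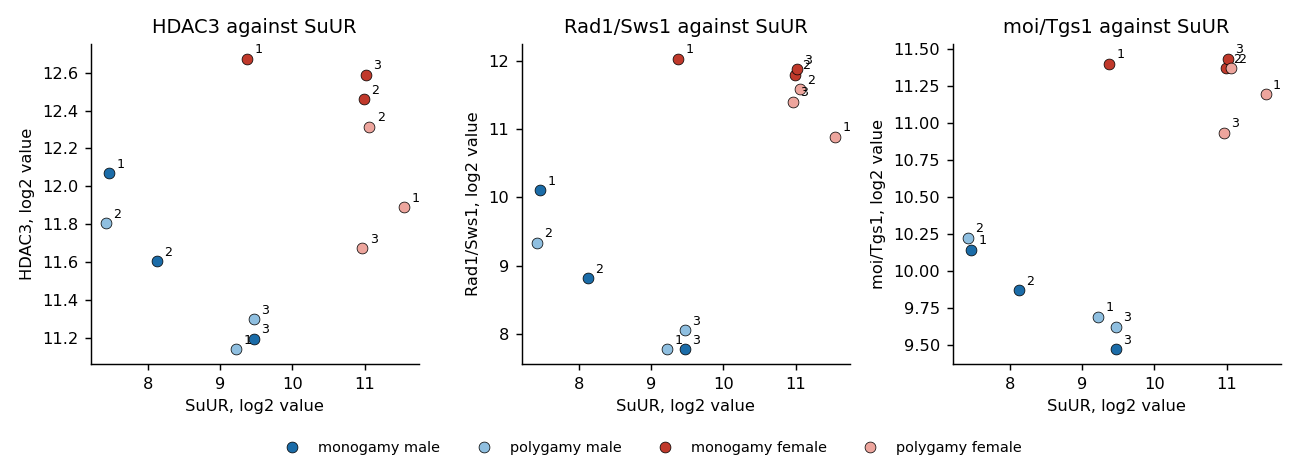
Log2 values of HDAC3, Rad1/Sws1 and moi/Tgs1 (vertical axes) against SuUR (horizontal axis) on the 12 arrays, numbered by population within its regime. The males (blue) fall along descending lines at r = -0.944, -0.943 and -0.970, and the females (red) lie apart from them.

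Named transcripts most like each member were ranked by the correlation of deviations from the 4 group means over the 12 arrays, among 43 others. For SuUR these were rdx, an adaptor of a ubiquitin ligase (r = 0.979), sle, a nucleolar protein (0.952), and CG42516/Pbp49 (0.860). For HDAC3 they were Polr3K/Tcs1, with a subunit of RNA polymerase III (0.956), CG32573/CG42512 (0.955) and moi/Tgs1 (0.95). For Rad1/Sws1 they were CG42374/Mettl5, with a ribosomal RNA methyltransferase (0.967), CG42455/vnc (0.893) and HDAC3 (0.886). For moi/Tgs1 they were CG32573/CG42512 (0.961), HDAC3 (0.95) and Polr3K/Tcs1 (0.907). The share of all transcripts at least as alike was 0.0661% for rdx with SuUR, 0.709% for sle and 5.21% for CG42516/Pbp49. It was 1.18% to 1.5% for the 3 of HDAC3, 0.679% to 4.58% for those of Rad1/Sws1 and 0.216% to 2.56% for those of moi/Tgs1, so many unnamed transcripts were as alike as most of those named. Ranked by the values themselves, which the sexes split into 2 clusters, the nearest were rdx for SuUR (0.962), Polr3K/Tcs1 for HDAC3 (0.976), and Rad1/Sws1 and moi/Tgs1 for each other (0.973).

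The nuclear transcripts kis, His4r and sle, chosen as context, were not called between the sexes, and their difference from the members was not tested. This does not hold for every named nuclear transcript. Polr3K/Tcs1, with a subunit of RNA polymerase III, was called lower in males (-1.15, limma adjusted p = 0.0164). The chromatin remodeller kis averaged 10.44 ± 0.51 in males and 10.45 ± 0.91 in females (SD over 6 arrays, difference -0.01, limma adjusted p = 0.979). His4r, a replacement histone H4, differed by -0.27 (SE 0.15, adjusted p = 0.158) and sle by -1.20 (SE 0.79, adjusted p = 0.216). Between regimes in females, kis differed by -1.36 (adjusted p = 0.125), sle by -2.97 (adjusted p = 0.135) and His4r by 0.14 (adjusted p = 0.653). Of the 40 named transcripts other than the members, 9 were called lower in males and 2 higher, with a median difference of -0.27, against -0.34 over all transcripts.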

How the data were processed

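RNA was labelled with Cy3 and hybridised to single-colour NimbleGen arrays, per the labels. The deposited values are on a log2 scale, and the submitters' processing notes name RMA as the authors' tool. Its version was not given in the sources used here, nor were the annotation behind the transcripts and the set of arrays it was run on. Arrays have no read depth, and their number limits the precision. Of the deposited columns all 12 were matched to a sample.

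Transcripts were named through identifiers in the synonyms of a RefSeq gene table (Release 6), which matched 44. All 16637 transcripts were fitted with limma 3.58.1 in R 4.3.3 (lmFit, eBayes), with 1 fit of the 4 groups, no filter and no block. For the average over the sexes, the population means were fitted. Adjustment over all transcripts followed Benjamini and Hochberg, with a threshold of 0.05 and, for sex, an absolute difference of at least 1. The fit was also run on simulated data with independent noise for each transcript and array. Such data lack the order that many transcripts share on these arrays, so the run does not cover it. P-values of this fit rest on the spread between the arrays of a group, moderated over transcripts by eBayes. The male and female arrays of a population entered it as separate units. With 1 array per population and sex, spread between populations and between arrays cannot be told apart.

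The members, the gene lists and the named genes (the members, kis, His4r and sle, and the 3 most correlated named transcripts per member) were chosen with earlier results of these data known. The pairing of males with females comes from the subject label, which is the same for both sexes of a population. The correlation of their deviations from the group means was 0.53, -0.07 and 0.40 in monogamy populations and 0.09, 0.07 and -0.18 in polygamy populations.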

Additional observations from a re-analysis of the deposited data

Results flagged for a closer look

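In 1 of 12 sets of 6 values (each member in males, in females and as the difference within populations), 1 array stood apart by Dixon's criterion. Chance alone picks about 5% of sets. SuUR stood at 9.37 in monogamy female 1, while the other 5 females lay between 10.97 and 11.54. The gap to the nearest female was 0.735 of the range, above the critical value for 6 samples. The same array had the highest female value of HDAC3 (12.68) and of Rad1/Sws1 (12.03). Without it, the sex difference of SuUR was -2.57.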

How the results depend on the processing

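The sex differences of the 4 members kept their sign in every alternative, and the 3 calls held in all of them: SuUR ran from -2.58 to -1.98, Rad1/Sws1 from -3.25 to -2.67 and moi/Tgs1 from -1.54 to -1.36. HDAC3 (-0.86 to -0.64) met the call rule only without the required size (-0.75). With the population as a fixed replicate block, paired by subject label, the sex difference of SuUR was -2.30, and neither this block nor a random one changed a member's call. Within monogamy, leaving out 1 array gave -2.67 to -1.66 for SuUR and -1.18 to -0.74 for HDAC3, which was called without monogamy male 1. Regime differences in males, leaving out 1 array, ran from -0.99 to 0.10 for SuUR, -0.014 to 0.42 for HDAC3, -0.094 to 1.07 for Rad1/Sws1 and -0.18 to 0.17 for moi/Tgs1. That of moi/Tgs1 turned to 0.0076 (quantile normalization of all arrays), 0.0046 (quantile normalization by sex), 0.0012 after centring and 0.19 with array weights, which gave -1.12, 0.36 and 0.84 for SuUR, HDAC3 and Rad1/Sws1 in males and 0.58 for HDAC3 in females. After cyclic loess within each sex, moi/Tgs1 was -0.00026 in females and -0.041 averaged over the sexes (-0.0053 to 0.25 leaving out 1 population). Regime differences in females, leaving out 1 array, ran from -1.01 to -0.19 for SuUR, 0.47 to 0.79 for HDAC3, 0.41 to 0.76 for Rad1/Sws1 and 0.12 to 0.34 for moi/Tgs1. The interaction of Rad1/Sws1 turned to 0.060, 0.034 and 0.079 after the 2 quantile normalizations and cyclic loess (-0.70 to 0.46 leaving out 1 array). That of SuUR was -0.26 to 0.83 leaving out 1 array and -0.46 with array weights, and that of moi/Tgs1 was 0.0054 with array weights. The cause of these changes was not tested.

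The count of transcripts called between regimes in females, 10, was 1 after either quantile normalization, 4 after cyclic loess, 2 with the replicate number as a block, 0 with the female arrays alone, 22 without polygamy females 2 and 3, 6614 with array weights, and 1 to 2080 leaving out 1 array (2080 without polygamy female 2, 201 without polygamy female 1). In males it was 6691 with array weights, against 0. The count for the interaction, 0, was 1 without the dimmest 25% of transcripts, 1 with the population as a random replicate block, 133 with array weights and 0 to 7 leaving out 1 array, and averaged over the sexes it was 2 with array weights, against 0. The default method of the array weights stopped before convergence, and its gene-by-gene method was used. Quantile normalization and leaving out arrays for the correlations were added after seeing the data. In males the sign of all 6 correlations held. In females, quantile normalization within the sex gave 0.737 for HDAC3 with Rad1/Sws1, which no longer passed, and 0.973 for Rad1/Sws1 with moi/Tgs1 and -0.758 for SuUR with HDAC3, which did.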
